A study of Homo sapiens with 4 samples.

Results

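Fluorouracil is inert until a cell turns it into nucleotides. The transcripts of 10 genes that carry out its uptake, activation, target step and removal were followed in HT29, an established human colorectal cancer line, without drug and after 2 h with 100 µM fluorouracil (5FU). The genes were chosen by symbol as rows of the expression table: the carrier gene SLC29A1, the activating genes UMPS, UPP1, TYMP, UCK1, UCK2 and TK1, the target gene TYMS, the dUTP hydrolase gene DUT and the breakdown gene DPYD. Each of the 10 symbols occurs in 1 of the 33117 rows. Total RNA was sequenced from 2 untreated libraries and 2 fluorouracil libraries, all of the same line in DMEM with fetal calf serum. The labels name no vehicle for the untreated cells, and whether the replicates are separate cultures is not stated, so a p-value here reflects library-to-library spread that may be technical.

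The base can enter through 3 enzymes, which attach a ribose phosphate, a ribose or a deoxyribose. UMPS transfers a ribose phosphate from PRPP and gives fluorouridine monophosphate directly. Uridine phosphorylase, encoded by UPP1, gives fluorouridine, which uridine-cytidine kinases (UCK1, UCK2) phosphorylate to the same product. Thymidine phosphorylase, encoded by TYMP, gives fluorodeoxyuridine, which thymidine kinase (TK1) turns into FdUMP, the inhibitor of thymidylate synthase. Dihydropyrimidine dehydrogenase, encoded by DPYD, takes the base out of all these routes and is the first step of its breakdown, which in the body proceeds mainly in the liver.

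Expression is given in FPKM, fragments scaled to the length of the transcript and the size of the library, so different genes may be set side by side. An error after ± is the SD of the 2 libraries of a group (n = 2), and log2 changes were taken after adding 0.1 to each FPKM. Colon epithelial transcripts were present: 10 of 12 markers, among them EPCAM, KRT8 and LGALS4, were at 1 FPKM or more in each library, while CDX1 and CDX2 stayed below 1. All 5 fibroblast and all 3 endothelial markers stayed below 1, with a summed FPKM of at most 0.322 for either list. The leukocyte markers PTPRC and CD3E stayed below 1 as well, while LYZ (1624 to 1835 FPKM) and CD14 (1.36 to 8.69 FPKM) were detected.

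The library of 5FU replicate 2 stood apart from the other 3. Its FPKM summed to 764861, against 427007 to 440558, and its values were deposited with a median of 6 significant digits, against 16. The untreated libraries lay within 0.5 log2 units of each other for 91.8% of 12462 tested genes (those with a mean of at least 1 FPKM). Fluorouracil replicate 1 lay within 0.5 of the untreated mean for 83.4% of them, and 5FU replicate 2 for 3733 genes of 12462, with a median shift of 0.19 over all tested genes (0.01 in replicate 1). In bulk RNA, fewer cells with a transcript and less of it per cell cannot be told apart. The treated libraries are given one by one throughout, and the part of this library difference in the results was not tested. Whether this library was processed with the same annotation and settings as the others is not given in the sources used here.

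In untreated cells the target and the nucleotide-handling genes of replicating cells were the most abundant members, and the breakdown gene was the least. The untreated means ran, from high to low, TYMS, TK1, DUT, UCK2, UMPS, SLC29A1, UCK1, UPP1, TYMP and DPYD. The untreated values of UCK2 and UMPS overlapped. The other neighbours in this order did not overlap between the untreated libraries, but over all 4 libraries TYMS overlapped with TK1, and each neighbouring pair from UCK2 down to TYMP overlapped as well. TYMS lay above 94.5% and 94.9% of the tested genes in the untreated libraries, whereas only 1.4% and 2.8% of those genes lay below DPYD.

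**Figure D1:**
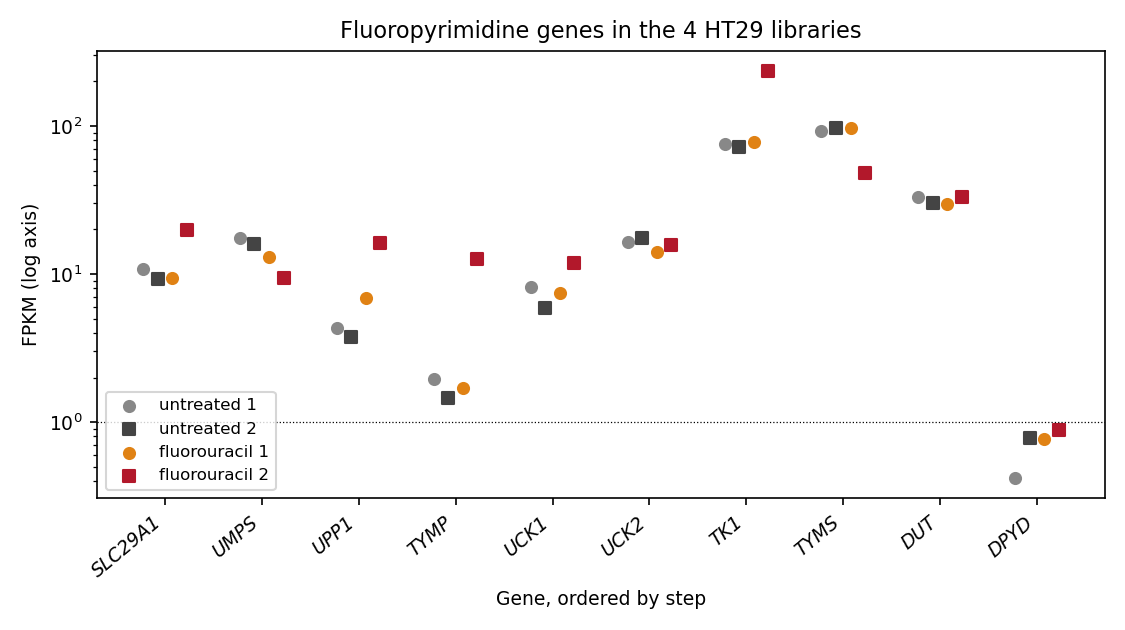
FPKM (log axis) of the 10 genes, ordered by their step, with 1 point for each of the 4 libraries and a dotted line at the filter of 1 FPKM. The first 3 libraries lie close together for most genes, and 5FU replicate 2 (red squares) departs from them at TYMP, TK1 and TYMS. UPP1 and UMPS separate in both treated libraries, as do TK1 and UCK2.

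No member was called between the conditions. Of the members, 9 had a mean of at least 1 FPKM and entered the limma fit; DPYD did not. None of the 9 had an adjusted p below 0.05 over 12462 genes (0% of all tested genes did), and 1, UPP1, had an unadjusted p below 0.05, as did 3.21% of all tested genes. By range, 2 members (UPP1 and TK1) had both treated values above both untreated ones, where 24.4% of tested genes did, and 2 (UMPS and UCK2) had both below, where 19.3% did, so neither share stands out from the table as a whole. The remaining 5 overlapped. An exact two-sided permutation test of 1 value over these 4 libraries has 0.333 as its smallest p.

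UMPS and UPP1, which open the routes to fluorouridine monophosphate, had treated values on opposite sides of the untreated ones. UMPS (chromosome 3, 124730366 to 124749273, plus strand, GRCh38), whose enzyme normally completes de novo synthesis of UMP from orotate, measured 17.5 and 16.0 FPKM without drug and 13.0 and 9.34 FPKM with 5FU. Both treated values were lower than both untreated values. The group values were 16.8 ± 1.08 and 11.2 ± 2.59 FPKM, a log2 change of -0.60 (SE 0.31, limma adjusted p = 0.671), so UMPS did not pass the test. The change was -0.36 log2 units in 5FU replicate 1 and -0.84 in 5FU replicate 2.

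UPP1 (chromosome 7, 48088628 to 48108733, plus strand) measured 4.30 and 3.76 FPKM untreated and 6.87 and 16.1 FPKM with 5FU. Both treated values were higher than both untreated ones, 1.70 times the untreated mean in 5FU replicate 1. Its log2 change of 1.37 (SE 0.50) had an unadjusted limma p of 0.0491 and an adjusted p of 0.671, so it did not pass either. In 5FU replicate 1, the library that resembles the untreated pair, UPP1 differed from the untreated mean by 0.76 on the log2 scale, the widest difference of the 9 tested members there, against 0.36 or less in size for each other one. Untreated replicates 1 and 2 differed by -0.19 for this gene. Of the 9 tested members, 8 lay within 0.5 log2 units of the untreated mean in 5FU replicate 1, as did 83.4% of all tested genes.

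Both genes kept these sides under each scaling tried. With the GC/length trend of each library removed, an alternative chosen after the data were seen, UPP1 differed by 0.70 and 1.59 and UMPS by -0.40 and -0.84 in 5FU replicates 1 and 2. With each library scaled to the same FPKM sum, the pairs were 0.73 and 1.16 for UPP1 and -0.40 and -1.66 for UMPS. Quantile normalization and centring on the median left UPP1 above and UMPS below the untreated pair in both treated libraries as well. Neither gene had an adjusted p below 0.05 under any of these scalings.

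TYMP (chromosome 22, 50525752 to 50530056, minus strand), for the enzyme that also splits thymidine, was the weakest of the 3 entry genes in untreated cells. It measured 1.97 and 1.47 FPKM untreated, 1.71 FPKM in 5FU replicate 1 and 12.6 FPKM in 5FU replicate 2. The first treated library lay between the untreated ones, and the second was 7.33 times their mean. The log2 change was 1.41 with an SE of 1.03 (limma adjusted p = 0.671), and it was 0.01 without 5FU replicate 2. Of its 3320 annotated exonic bases, TYMP shares 347 with ODF3B and 339 with SCO2, both on the same strand, so fragments there may be assigned to either gene of a pair. ODF3B had 0.881, 0.879, 0.593 and 6.79 FPKM in the same order of libraries. SCO2, which encodes a copper chaperone of cytochrome c oxidase, had 10.5, 7.31, 8.31 and 25.4 FPKM. In 5FU replicate 2, with the GC/length trend removed, the log2 difference of TYMP from the untreated pair went from 2.82 to 1.49 and that of SCO2 from 1.53 to -0.30.

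Set against each other within a library, where a common scale factor cancels, UMPS was the leading entry transcript in 3 of 4 libraries. The ratio of UMPS to UPP1 was 4.08 and 4.26 in the untreated libraries, 1.89 in 5FU replicate 1 and 0.580 in replicate 2. Both treated ratios were lower than both untreated ones. This follows from UMPS being lower and UPP1 higher in both treated libraries, so the separation of the ratio adds no separate support. The difference of -1.99 log2 units had an exact permutation p of 0.333, the smallest this design gives, and 0.8 after adjustment over the 6 ratios computed; it was -1.14 without 5FU replicate 2. Of the summed FPKM of the 3 entry genes, UMPS held 73.7% and 75.4% untreated and 60.3% and 24.6% treated. The share of UPP1 was 18.1% and 17.7% untreated and 31.8% and 42.3% treated. TYMP held 6.90% to 8.27% in the first 3 libraries and 33.1% in 5FU replicate 2. The ratio of TYMP to UPP1 overlapped between the groups, at 0.458 and 0.390 untreated and 0.249 and 0.782 treated (log2 difference 0.06, exact permutation p = 1.0).

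**Figure D2:**
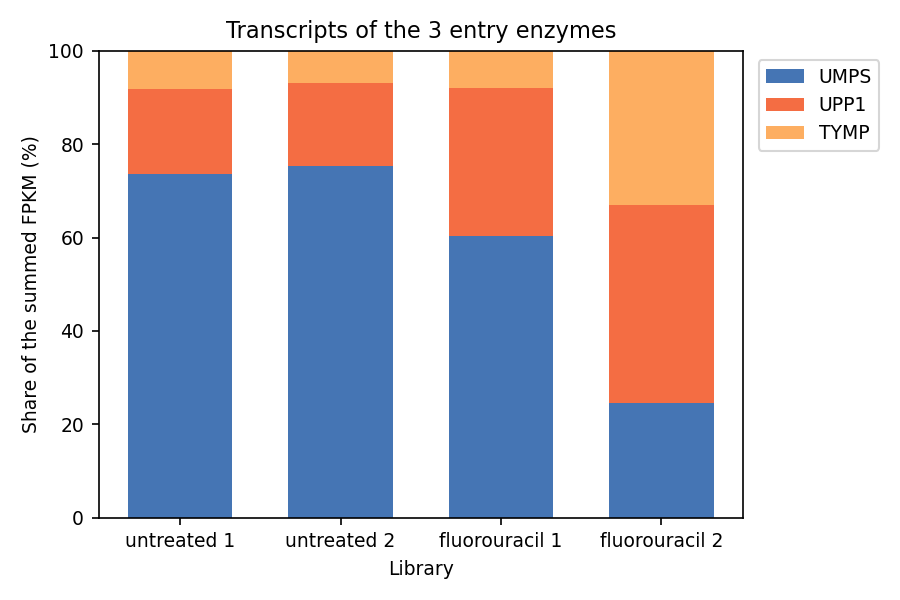
Share of each entry gene in the summed FPKM of UMPS, UPP1 and TYMP, 1 stacked bar for each library. UMPS holds 73.7% and 75.4% in the untreated libraries, 60.3% in 5FU replicate 1 and 24.6% in 5FU replicate 2, where TYMP takes 33.1%.

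The DNA before the annotated starts is shown for UPP1 and UMPS, a pair picked by its values because the genes separate by condition in opposite directions. TK1 and UCK2 separated as well in the values as deposited. Of all tested genes, 24.4% lay above and 19.3% below in both treated libraries. The sequences are RefSeq's (GRCh38.p14), cut where an annotated exon begins, with capitals for any of 7 motifs searched on both strands.
UPP1, first start, chr7:48088454-48088627, plus strand: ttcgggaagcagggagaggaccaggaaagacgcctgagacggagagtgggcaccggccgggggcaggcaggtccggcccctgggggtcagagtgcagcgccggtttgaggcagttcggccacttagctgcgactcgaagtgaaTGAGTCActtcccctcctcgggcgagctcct
UPP1, second start, chr7:48089004-48089211, plus strand: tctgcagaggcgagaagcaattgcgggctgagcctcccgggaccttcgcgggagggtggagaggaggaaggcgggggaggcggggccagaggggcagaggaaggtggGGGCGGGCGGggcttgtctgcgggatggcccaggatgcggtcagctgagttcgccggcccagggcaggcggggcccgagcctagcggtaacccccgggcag
UMPS, chr3:124730202-124730365, plus strand: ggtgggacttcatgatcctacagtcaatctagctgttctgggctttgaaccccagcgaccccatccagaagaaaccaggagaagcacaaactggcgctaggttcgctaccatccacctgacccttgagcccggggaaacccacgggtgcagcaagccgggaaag

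The capitals in the first UPP1 sequence mark TGAGTCA, the letters of an AP-1 site, 107 bases before the RefSeq start. UPP1 was the only member of the 10 with these letters or their reverse complement in a window from 250 bases before to 50 after a start, and 6.05% of 27305 genes have them. The capitals in the second sequence are 2 overlapping GC boxes (GGGCGG), which 8 of the 10 members and 48.3% of genes have. The UMPS stretch holds none of the motifs; 47 bases before its RefSeq start, in what GENCODE annotates as exon, lies TGACGTCA, the letters of a cAMP response element, found in 1 member and 2.25% of genes. E2F letters (TTTCCCGC, TTTCGCGC, TTTGCCGC or TTTGGCGC) occur in TYMS and DUT and in 3.99% of genes. A CCAAT box (CCAAT) occurs in TYMP, UCK2 and TK1 and in 39.7% of genes, the E-box CACGTG in SLC29A1 and in 8.77%, and TATAAA in TK1 and in 14% of genes. The motifs were chosen after the promoters were read, so the shares over all genes give a scale and are no test. A match describes letters in the window and shows no binding.

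The uridine kinases were both expressed, UCK2 above UCK1 in each library. UCK2 measured 16.4 and 17.4 FPKM untreated and 14.2 and 15.7 FPKM with 5FU. Its treated values were lower than both untreated ones by a small margin, a log2 change of -0.18 (SE 0.27, limma adjusted p = 0.756). UCK1 had 8.14 and 5.87 FPKM untreated and 7.43 and 11.8 FPKM with 5FU, and its groups overlapped. The ratio of UCK2 to UCK1 was 2.01 and 2.96 untreated and 1.91 and 1.33 treated. Its groups did not overlap. The exact permutation p was 0.333, the smallest this design gives, and 0.8 after adjustment over the 6 ratios. The log2 change of UCK1 was 0.43 (SE 0.38, limma adjusted p = 0.671) as deposited and -0.19 with the GC/length trend removed, so its direction depends on the scaling, while UCK2 stayed below under each scaling. UCKL1, a related kinase-like gene, had 15.6, 14.3 and 13.7 FPKM in the first 3 libraries and 47.1 FPKM in 5FU replicate 2.

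TK1 (chromosome 17, 78174075 to 78187233, minus strand), for the cytosolic thymidine kinase whose level follows the cell cycle, was second only to TYMS in untreated cells. It measured 75.0 and 72.1 FPKM untreated, 77.7 FPKM in 5FU replicate 1 and 234.6 FPKM in replicate 2. Replicate 1 was 1.06 times the untreated mean, a log2 difference of 0.08, where untreated replicates 1 and 2 differed by -0.06. Replicate 2 was 3.19 times the untreated mean. The log2 change was 0.88 (SE 0.61, limma adjusted p = 0.671). With the GC/length trend removed, the change in 5FU replicate 2 went from 1.67 to 0.14 and the groups overlapped; the annotated TK1 transcript used for this has 62.8% GC, the highest of the 10 members.

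TYMS, the target gene (chromosome 18, 657604 to 673578, plus strand), had 93.1 and 97.5 FPKM untreated, 96.8 FPKM in 5FU replicate 1 and 48.1 FPKM in replicate 2. The first treated library lay within the untreated range, and the second was 0.504 times the untreated mean. The groups overlapped, with a log2 change of -0.48 (SE 0.44, limma adjusted p = 0.671) that was 0.02 without 5FU replicate 2. With the GC/length trend removed, the TYMS difference of that library went from -0.99 to -1.79. TYMS shares 967 of 2470 annotated exonic bases with ENOSF1 on the opposite strand, and whether the counting used strand is not given in the sources used here. ENOSF1 measured 31.7, 32.8, 29.6 and 27.0 FPKM in the same order.

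The pair of S-phase genes TK1 and TYMS lay on opposite sides of the untreated values in 5FU replicate 2 and near them in replicate 1. Their ratio was 0.806 and 0.739 untreated and 0.803 and 4.88 treated, a log2 difference of 1.36 with overlapping groups (exact permutation p = 0.667). Among 18 other S-phase genes such as PCNA and the MCM helicase genes, the median change was -0.03 in 5FU replicate 1, with all 18 within 0.5 log2 units (83.4% of all tested genes were), and 0.26 in replicate 2, where changes ran from -1.05 to 1.50. Of these 18 genes, 2 had both treated values above and 4 both below the untreated pair, against 24.4% and 19.3% of all tested genes.

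DUT, which hydrolyses dUTP and its fluorinated counterpart and so keeps them out of DNA, was the steadiest member in the values as deposited. Without drug it had 33.1 and 30.1 FPKM, and with 5FU 29.9 and 33.1 FPKM. The groups overlapped almost completely, at 31.6 ± 2.15 and 31.5 ± 2.28 FPKM (log2 change -0.01, SE 0.27, limma adjusted p = 0.994). Scaled to equal FPKM sums, 5FU replicates 1 and 2 differed from the untreated mean by -0.11 and -0.76 on the log2 scale. With the GC/length trend removed they differed by -0.13 and -0.09. Under each of these scalings both treated values lay below both untreated ones. The ratio of DUT to TYMS was 0.356 and 0.309 untreated and 0.309 and 0.689 with 5FU, with overlapping groups (exact permutation p = 0.667). GENCODE lists 8 pseudogenes named after DUT and 2 named after TYMS, none of which is a row of the table, and fragments from such copies could not be told apart here.

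SLC29A1, the equilibrative nucleoside transporter ENT1, had 10.8 and 9.31 FPKM untreated, 9.40 FPKM in 5FU replicate 1 and 19.8 FPKM in replicate 2. Replicate 1 lay within the untreated range and replicate 2 was 1.97 times the untreated mean. The log2 change was 0.44 (SE 0.45, limma adjusted p = 0.680) as deposited and -0.14 with the GC/length trend removed, so no direction holds across scalings. Its relative SLC29A2 (ENT2) was higher in untreated cells, at 17.0 and 20.7 FPKM, with 12.7 and 22.8 FPKM with 5FU. The concentrative carriers SLC28A1 and SLC28A2 stayed at or below 0.0931 FPKM, SLC28A3 had 0.503 to 1.92 FPKM, and SLC22A7, an organic anion transporter, was listed at 0 in each library.

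Breakdown genes were low or listed at 0 in untreated and treated cells. DPYD, for the rate-limiting enzyme of the route (chromosome 1, 97077743 to 97995000, minus strand), had 0.420 and 0.777 FPKM untreated and 0.766 and 0.886 FPKM with 5FU, and the groups overlapped. It was below the filter, so it was not tested; the difference of 0.45 log2 units was smaller than the 0.75 between the untreated libraries. DPYS, the dihydropyrimidinase of the second step, had 0.0602 to 0.156 FPKM, and UPB1, of the last step, was listed at 0 in each library. The ratio of TYMS to DPYD was 222 and 126 untreated and 126 and 54.3 with 5FU, and the groups overlapped (exact permutation p = 0.667).

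**Figure D3:**
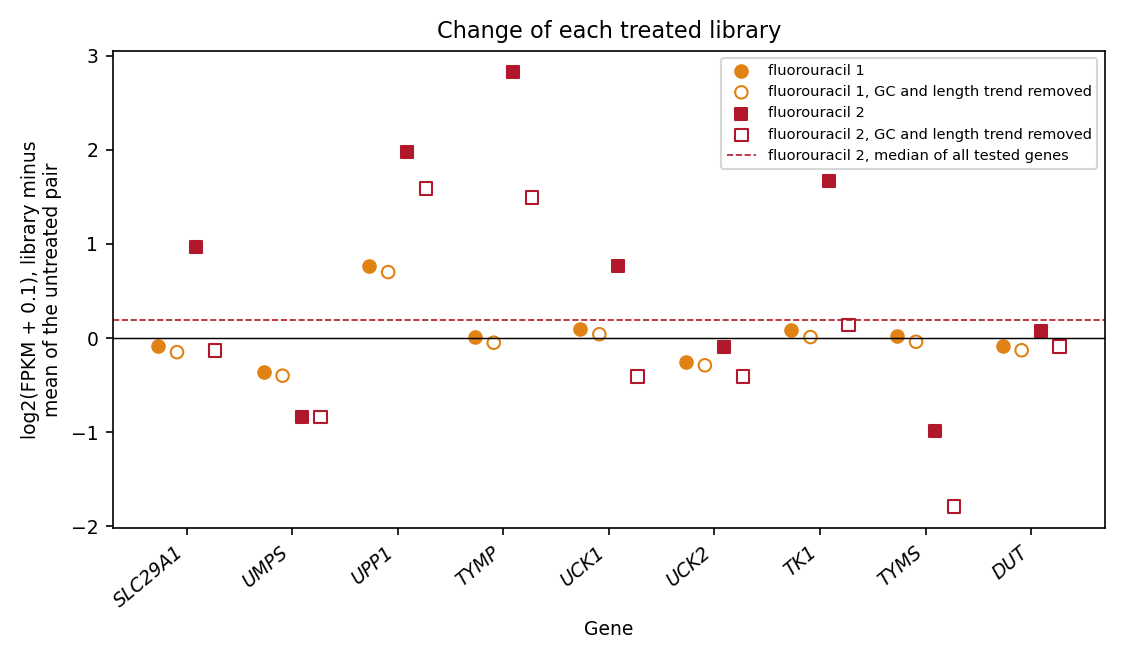
Log2 change of each treated library from the mean of the untreated pair for the 9 tested members, as deposited (filled) and with the GC/length trend removed (open); the dashed line is the median of all tested genes in 5FU replicate 2. UPP1 lies above and UMPS below 0 in all 4 versions, while TK1 in replicate 2 goes from 1.67 to 0.14 and TYMS from -0.99 to -1.79.

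Read from transcripts alone, the route open to these cells has a measured gene at each activating step and little transcript for breakdown. Beyond the members, 37 other genes of fluoropyrimidine handling were read, of which 30 were tested. None was called in either direction (0% of all tested genes were) and none had an unadjusted limma p below 0.05. Both treated values lay above in 4 and below in 6 of the 30, where 24.4% and 19.3% of all tested genes did, with a median log2 change of 0.02 against 0.10 for all tested genes. In 5FU replicate 1, 26 of the 30 stayed within 0.5 log2 units of the untreated mean, and 8 did in replicate 2.

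Of the later kinases, CMPK1, DTYMK and NME1 were abundant in each library, whereas NME2 was low in all but 5FU replicate 2. CMPK1, which makes the diphosphate from FUMP and FdUMP, had 93.5 and 92.4 FPKM untreated and 83.1 and 55.3 FPKM with 5FU. DTYMK, thymidylate kinase, had 46.2 and 48.0 FPKM untreated and 48.8 and 107.8 FPKM with 5FU. Of the nucleoside diphosphate kinases, NME1 was at 52.6, 46.5 and 42.5 FPKM in the first 3 libraries and at 369.3 FPKM in 5FU replicate 2. NME2 was at 0.625 to 1.31 FPKM in those libraries and at 1639 FPKM in the last. These genes are similar neighbours, and fragments may be assigned to either, so their single values are uncertain. Both were highest in 5FU replicate 2, and the cause was not tested.

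RRM1 and RRM2 encode subunits of ribonucleotide reductase, which carries the ribose route over to deoxynucleotides. Both treated values were lower for each, as for 19.3% of all tested genes. RRM1 had 103.5 and 105.5 FPKM untreated and 96.6 and 56.1 FPKM with 5FU, and RRM2 77.0 and 72.8 against 70.0 and 51.3 FPKM. In 5FU replicate 1 their log2 changes were -0.11 and -0.10. Neither passed the test (limma adjusted p = 0.671 and 0.674). Both genes also belong to the S-phase list above and so count in both lists. The subunit RRM2B, a p53 target, had 9.77 and 9.87 FPKM untreated and 12.6 and 4.51 FPKM with 5FU and so lay on both sides. PRPS1 and PRPS2 make the PRPP used by UMPS. PRPS1 had 36.9 and 34.0 FPKM untreated and 36.2 and 28.6 FPKM with 5FU, and PRPS2 12.7 and 11.9 against 9.93 and 8.32 FPKM. Only the PRPS2 groups of this pair did not overlap, with both treated values lower, as for 19.3% of all tested genes. PRPS2 did not pass the test (limma adjusted p = 0.671).

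Folate genes matter because FdUMP binds thymidylate synthase together with methylene-tetrahydrofolate. GGH, which removes glutamates from folates, had lower values in both treated libraries, at 22.4 and 21.4 against 18.9 and 16.0 FPKM. It did not pass the test (limma adjusted p = 0.671), and 19.3% of all tested genes had both treated values below. SHMT2, which makes methylene-tetrahydrofolate in mitochondria, had 57.9 and 60.5 FPKM without drug and 60.3 and 146.5 FPKM with 5FU, and its groups overlapped. Of 5 genes that act on uracil in DNA or on dNTP pools, 1, the glycosylase gene SMUG1, had both treated values higher, where 24.4% of all tested genes did. It measured 8.45 and 7.89 FPKM untreated and 8.68 and 35.7 FPKM with 5FU (limma adjusted p = 0.671). In 5FU replicate 1 its log2 change was only 0.09. The other 4 overlapped. UNG, the main uracil glycosylase, had 39.5 to 56.9 FPKM.

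Among prodrug genes, CDA, the cytidine deaminase in the conversion of capecitabine, was present at 19.3 and 22.3 FPKM untreated and 18.7 and 51.0 FPKM with 5FU. CES1, the first carboxylesterase of that conversion, was listed at 0 in 3 libraries and had 0.033 FPKM in 5FU replicate 2, while CES2 had 7.65 to 13.6 FPKM. The groups of CDA and CES2 overlapped.

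**Figure D4:**
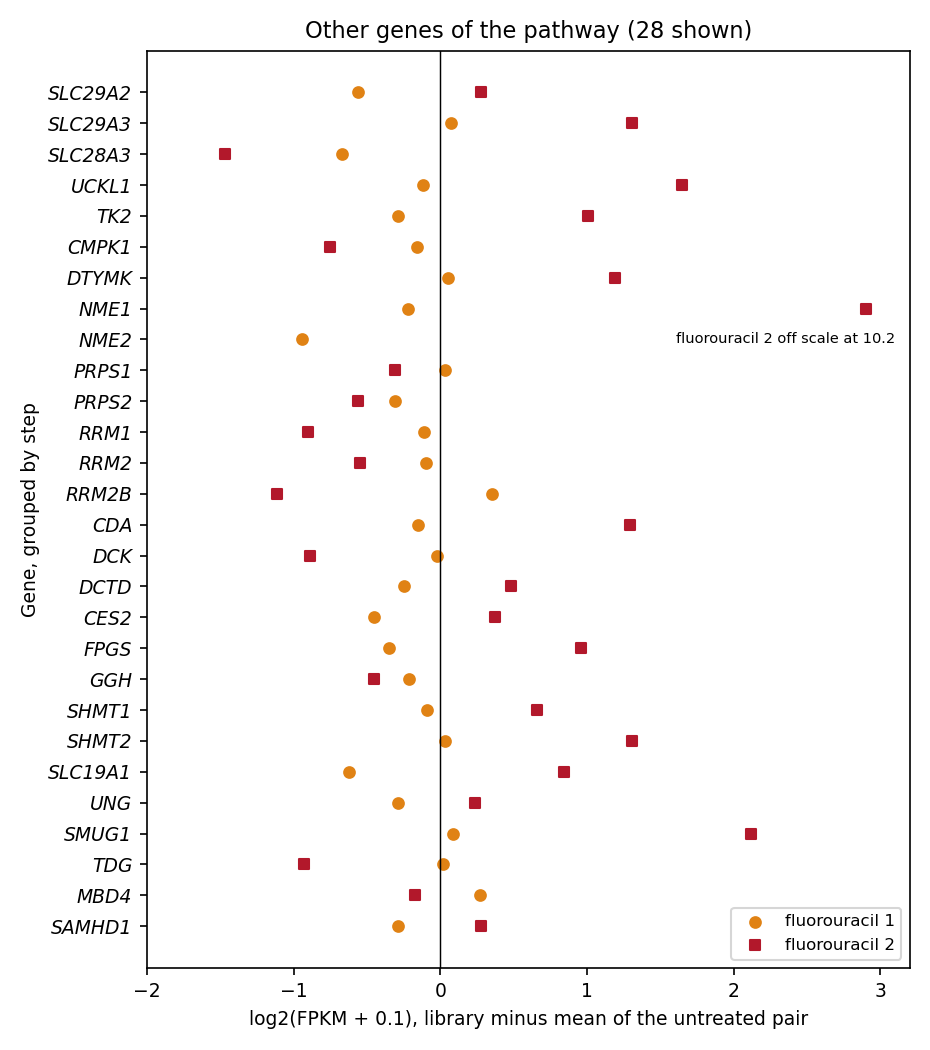
Log2 change of each treated library from the mean of the untreated pair for 28 of the 30 tested genes of the wider pathway list, grouped by step. 5FU replicate 1 (circles) lies within 0.5 log2 units of 0 for 24 of the 28 genes, replicate 2 (squares) spreads widely, and NME2 in replicate 2 is off the scale at 10.2.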

How the data were processed

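The deposited table gives FPKM in 33117 rows for 4 libraries of HT29 cells, untreated or treated with fluorouracil (5FU). Per the submitters' processing notes, TopHat2 2.1.0 and Cufflinks 2.2.1 were used, with builds hg38 and mm10 named without a role; annotation, use of strand and between-library scaling were not given in the sources used here. Fragment totals are unknown, so no counting interval is given. Low values share fixed ratios, which make untreated replicate 2 1.05 times and 5FU replicate 1 1.02 times as deep as untreated replicate 1; 5FU replicate 2 gave no common ratio.

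Rows with a number in place of a symbol (28) were left out. The 12462 genes averaging 1 FPKM or more were tested on log2(FPKM + 0.1) with limma 3.58.1 in R 4.3.3, trended prior, two-sided, 2 residual degrees of freedom and Benjamini-Hochberg adjustment over all of them and a threshold of 0.05. The fit was run on simulated data in which every library had the spread of the untreated pair. The wider spread of 5FU replicate 2 was not simulated. Ratios within a library were compared by exact permutation tests, 6 in all, adjusted over the 6 by Benjamini-Hochberg. Alternatives covered pseudocount, filter, scaling, prior, a replicate block and leaving out each library. Positions, exons and transcript GC are from GENCODE 29 on GRCh38, promoters from RefSeq (GRCh38.p14), where all 10 members matched. A loess fit (span 0.3) took out the GC/length trend over 10517 protein-coding genes, using each gene's longest transcript. In 5FU replicate 2, the 79 rows around each member followed the other libraries in place (r of 0.937 to 0.980) and not shifted by 1 row (at most 0.334). A block of rows elsewhere, from MFRP to MICALL2, was taken as displaced. It stayed in the main analysis and in the shares over all tested genes. Leaving it out, an alternative added later, left 12411 tested genes with 0 called.

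The members and lists were chosen with earlier results of these data known, and the motifs after the promoters were read. The named genes are the 10 members, the overlapping neighbours ENOSF1 and SCO2 (ODF3B was added after its values were seen) and genes of the wider list. Some genes of that list are not reported here.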

Additional observations from a re-analysis of the deposited data

How the results depend on the processing

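The count of called genes was 0 in the main analysis and 0 under both other pseudocounts, both other filters, each scaling, an untrended prior and without either untreated library. Leaving out a treated library gave 8337 (5FU replicate 1 left out) or 18 (5FU replicate 2 left out); such fits assume that the remaining one varies like the untreated pair. Without single libraries the count of members ran from 0 to 6 (9 tested) and that of wider pathway genes from 0 to 23 (30 tested). Each of these calls came when 5FU replicate 1 was left out. That fit rests on 5FU replicate 2 alone and called 8337 of all 12462 tested genes, so its counts are not specific to these lists. The 6 members were SLC29A1, UMPS, UPP1, TYMP, TK1 and TYMS. Their log2 changes there were 0.97, -0.84, 1.98, 2.82, 1.67 and -0.99. The replicate numbers are not shown to pair libraries (correlation of deviations -0.048); the replicate block gave 339 called genes, 1 of them in the wider list (NME2) and 0 among the members. Of 134 log2 changes of members recomputed, 122 kept their direction and side of the threshold. With the GC/length trend removed, SLC29A1 went to -0.14 and UCK1 to -0.19. Over the omissions of single libraries, SLC29A1 ran from -0.09 (5FU replicate 2 left out) to 0.97, TYMS from -0.99 to 0.02 (5FU replicate 2 left out) and DUT from -0.08 to 0.07 (5FU replicate 1 left out; 0.06 with untreated replicate 1 left out). Over every alternative, scalings included, UPP1 ran from 0.76 to 1.98 and UMPS from -1.03 (equal FPKM sums) to -0.36. Scaling to equal FPKM sums moved the median change of all tested genes from 0.10 to -0.32 and quantile normalization to -0.02, and changes under them are relative to these; the split of tested genes above and below both untreated values went from 24.4% and 19.3% to 12.8% and 31.0% with equal sums and to 18.5% and 29.4% with the trend removed. The cause of these moves was not tested.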
